A study of Ctenopharyngodon idella with 6 samples.

Results

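The microRNAs miR-130, miR-301 and miR-454 form one seed family, since their 3p strands begin with the same bases. The members were taken by name, as every entry of the known miRNA table whose family number was exactly miR-130, miR-301 or miR-454, whatever the species prefix, letter or arm, which gave 92 of 2925 entries. Of these, 46 were named miR-130, 32 miR-301 and 14 miR-454. The table lists miRNAs under the names of many species, here 31 prefixes, and one population of reads was often counted under several names. The 92 entries therefore carried only 41 distinct sets of values, and an entry is named below for the value set it stands for. The prefixes used here are dre for zebrafish, ccr for common carp, ssa for Atlantic salmon, gmo for Atlantic cod, ola for medaka, ipu for channel catfish, gga for chicken, aca for the anole lizard, mmu for mouse, mdo for opossum, sha for the Tasmanian devil, ssc for pig, ggo for gorilla and hsa for human.

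Small RNA of plasma exosomes, the small vesicles that cells release into blood, was sequenced from 10-month-old grass carp (Ctenopharyngodon idella) reared together in one crowded pond, and fish that had grown large were compared with fish that had stayed small. The large fish libraries L1, L2 and L3 each held plasma pooled from 2 fish, and the small fish libraries S1, S2 and S3 each held plasma pooled from 5 fish. No treatment is named for either group, which differed by body size and by the number of fish in a pool, so that the effect of pool size and the effect of growth cannot be told apart. Values are counts per 1000000 miRNA counts of a library (CPM). Errors give the SD of the 3 pools of a group, except where they are named as a standard error (SE). Plasma exosomes come from many tissues, so that fewer vesicles from a cell type and less miRNA per vesicle cannot be told apart.

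A miRNA guides the Argonaute complex to messenger RNAs that pair with its seed, bases 2 to 8 from the 5′ end, and members with the same seed can recognise the same sites. In humans the genes of miR-301a and miR-454 lie together in an intron of SKA2, a gene of the mitotic spindle, and those of miR-301b and miR-130b lie next to each other in another cluster. Human miR-130a is known for repressing GAX and HOXA5, which restrain blood vessel growth, in endothelial cells, and human miR-130 for repressing PPARG, a regulator of fat cell formation.

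The sequences printed first are those on which the results turn, as the deposited table gives them, with bases 2 to 8 in capitals. They show one seed followed by a different 3′ part in each family number.
aca-miR-130a-3p: cAGTGCAAtgttaaaagggca
dre-miR-130b: cAGTGCAAtaatgaaagggcat
dre-miR-301a: cAGTGCAAtagtattgtcaaag
gga-miR-301b-3p: cAGTGCAAtagtattgtcaaagcat
dre-miR-301c-3p: cAGTGCAAtagtattgtcatag
dre-miR-301b-3p: cAGTGCAAtagtattgtcattg
dre-miR-454a: tAGTGCAAtattgctaataggg
dre-miR-454b: tAGTGCAAtattgcttataggg
ggo-miR-454: tAGTGCAAtattgcttatagggtt

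Of the 92 entries, 55 were 3p strands, 35 were 5p strands and 2 fell under no arm, because their names gave none and their first bases did not hold GTGCAA. The seed AGTGCAA was carried by 52 of the 55 3p entries, namely 25 of miR-130, 17 of miR-301 and 10 of miR-454. It occurred in 52 of the 2925 entries of the table, and 0 of them lay outside the family. The 3 other 3p entries began 1 or more bases further in, with the seed GTGCAAT in sha-miR-130b and cpi-miR-130d-3p and TGCAATA in ola-miR-301a-3p. The 2 entries without an arm were ipu-miR-130c, whose sequence was that of a 5p strand, and ssc-miR-301, which differs from dre-miR-301a by G5C (positions counted from 1 at the 5′ end, with the base of the entry after "from" given first, here that of dre-miR-301a) and so has the seed AGTCCAA. These 4 sequences show where a family name and the shared seed part.
sha-miR-130b: aGTGCAATgttaaaagggcat
ola-miR-301a-3p: gTGCAATAgtattgtcaaagca
ipu-miR-130c: gCCCTTTTtctgttgtact
ssc-miR-301: cAGTCCAAtagtattgtcaaagc

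Within a family number the entries differ by few bases of the 3′ part. Over 22 bases, dre-miR-301c-3p differs from dre-miR-301a by A20T, dre-miR-301b-3p differs from dre-miR-301a by A20T and A21T, and dre-miR-454b differs from dre-miR-454a by A16T. Over 21 bases, dre-miR-130b differs from aca-miR-130a-3p by G10A, T11A and A13G. Letters did not always follow the sequence, since gga-miR-301b-3p begins with the 22 bases of dre-miR-301a, and its values differed from those of dre-miR-301a by at most 4 counts, in 1 library. Likewise gga-miR-130a-3p, which differs from aca-miR-130a-3p by G10A, carried exactly the same values, whereas mmu-miR-130a-3p, with 0 differences over 21 bases, carried lower ones. The values of an entry thus belong to the reads credited to a name and cannot be read as the level of that exact sequence.

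The depth of the 6 libraries, recovered as whole counts from the steps of the CPM values, ranged from 5272418 counts in L1 to 11524535 in S2. Where 0 reads were counted, up to 3 counts remain possible, which is between 0.260 CPM in S2 and 0.569 CPM in L1, and such limits cover counting error only. Family numbers were ranked by the mean CPM of their most abundant entry, and among 438 of them miR-454 ranked 69 with 92.7 CPM, miR-301 ranked 80 with 45.8 CPM and miR-130 ranked 106 with 10.7 CPM. Levels above 100 CPM in at least 1 library were reached by 10 entries in 5 value sets, and these were the 3p entries of miR-454. Among the markers of other sources of vesicles, the summed CPM of 3 leukocyte miRNAs (miR-142, miR-150, miR-223) was 9374 to 11700 in large fish against 3283 to 4506 in small fish with 3 of 3 higher in large fish, and that of 3 muscle miRNAs (miR-1, miR-133, miR-206) was 2374 to 6609 against 10585 to 17496 with 3 of 3 lower. The 2 erythroid miRNAs (miR-144, miR-451) summed to 3118 to 3275 against 1411 to 3344, the 3 of thrombocytes and endothelium (miR-126, miR-221, miR-222) to 7784 to 14982 against 9400 to 14061 and miR-122 of liver to 87.3 to 257 against 190 to 254, with 0 of these 6 called by limma at the thresholds given next. None of these markers was at 0 in a library, and the part of these cell types in the results on the family was not tested.

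The question of the comparison was which exosomal miRNAs differ between fish of different growth. Most tested 3p entries of miR-454 (8 of 10) and some of miR-130 (11 of 25) were called lower in large fish than in small fish. The values of the most abundant miR-301 entry overlapped between the groups, and no entry of the family was called higher in large fish. Entries that reached 1 CPM in 3 or more libraries were tested by limma on the scale log2(CPM + 1), as large fish minus small fish, with the adjustment of Benjamini and Hochberg over all 1807 such entries. An entry was called where the adjusted p did not exceed 0.05 and the groups differed 1.5-fold or more. Of the 92 entries, 63 were tested, in 28 value sets, of which 48 entries reached 1 CPM in all 6 libraries and 15 in 1 or 2 large fish libraries and all small fish libraries. The test called 21 of the 63 entries lower in large fish, which is 33.3% beside 14.2% of all tested entries, and 0 higher, beside 2.82%. In either direction 17% of all tested entries were called. The balance over all entries, 257 lower and 51 higher, depended on the scaling, since it was 165 and 95 under TMM scaling and 195 and 175 with DESeq2, and it turned to 95 lower and 138 higher under quantile normalization. Counted once per value set, 10 of 28 were lower and 0 higher, so that 10 of 28 were called in either direction. With identical entries counted once over the whole table, 173 of 968 value sets were called in either direction. Some of these called sets were nearly equal. The sets of aca-miR-130a-3p and sha-miR-130b, and those of ccr-miR-454b and ssa-miR-454-3p, differed by at most 1 count in a library. Those of dre-miR-301b-3p and ssa-miR-301c-3p differed only in S1, with 56 against 52 counts. Counts of value sets, here and by family number, therefore overstate how many separate profiles were called. By family number, 11 of 30 entries of miR-130 (4 of 11 value sets), 2 of 23 of miR-301 (2 of 12 value sets) and 8 of 10 of miR-454 (4 of 5 value sets) were called lower. At an unadjusted p under 0.05, 34 of the 63 entries passed, beside 32.5% of all tested entries in either direction and 24.5% in the direction of lower values. The 29 untested entries reached 1 CPM in fewer than 3 libraries.

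Without regard to the test, all 3 large fish values lay below all 3 small fish values in 34 of the 63 tested entries, or 54.0%, beside 29.6% of all tested entries, and above them in 0, beside 10.5%. Groups without overlap in either direction made up 40.1% of all tested entries. These 34 were 22 of 30 entries of miR-130, 2 of 23 of miR-301 and 10 of 10 of miR-454. The 15 entries at 1 CPM in only 1 or 2 large fish libraries passed the filter only with their small fish values. Among them, dre-miR-130b, ssa-miR-130a-3p, gmo-miR-130b-3p, ssa-miR-130d-3p, dre-miR-301b-3p and ssa-miR-301c-3p did not overlap, while cpi-miR-130a-3p and gmo-miR-301c-3p did. The shares of 54.0% and 33.3% include these 15 entries, were not recounted without them, and are not separate support for lower values. The median log2 fold change was −1.16 for the tested miR-130 entries, −0.15 for miR-301 and −0.80 for miR-454, against −0.26 for all tested entries, and single entries ranged from −2.45 to 0.32. Fold changes are differences of log2(CPM + 1), which understates the change of entries near 1 CPM. The family count changed with the libraries and the method used. It was 0 without L1, L2, S1 or S3 (30 or 31 at an unadjusted p under 0.05), 4 without S2 and 24 without L3. The count over all tested entries also moved, between 1 and 365 with 1 library left out, so this dependence was not particular to the family. On the recovered counts, edgeR's quasi-likelihood test called 0 entries of the family, with 21 at an unadjusted p under 0.05, beside 16 by edgeR's exact test and 14 by DESeq2. Over all 1807 entries the quasi-likelihood test called 46, and DESeq2 called 195 lower and 175 higher. No total over all entries is given here for the exact test, so its 16 cannot be set against a share.

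**Figure D1:**
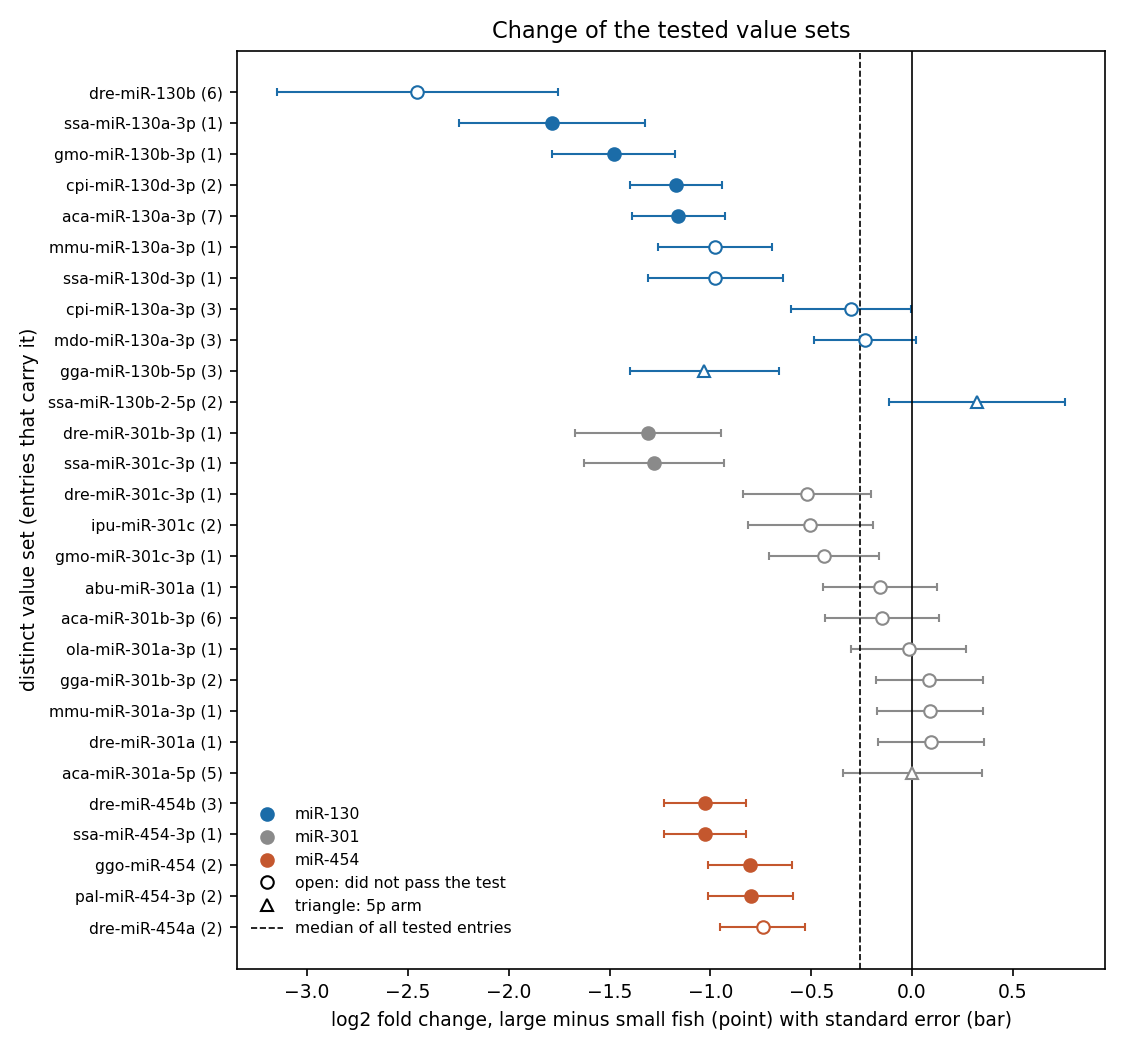
Log2 fold change of log2(CPM + 1), large minus small fish, for the tested value sets of the family, with bars of 1 SE from limma, filled points for value sets called lower, triangles for 5p strands, the number of entries that carry a set in brackets and the median of all tested entries as a dashed line. The values run from −2.45 for dre-miR-130b to 0.32 for ssa-miR-130b-2-5p, and the value sets called lower belong to miR-130 and miR-454 and, for 2 sets, to miR-301.

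miR-454 was the most abundant of the 3. Its representative, ggo-miR-454, whose values are also those of hsa-miR-454-3p, was at 59.4, 79.0 and 64.1 CPM in L1 to L3 and at 113, 112 and 128 CPM in S1 to S3. All 3 large fish pools lay below all 3 small fish pools. The means were 67.5 ± 10.2 and 118 ± 9.19 CPM (SD, n = 3 each), with a log2 fold change of −0.80 (SE 0.21) and an adjusted p of 0.0406 by limma. This call stood close to its threshold and was kept in 5 of 19 other settings, and the log2 fold change was negative in each of the 19, between −0.92 and −0.27. It was lost when any 1 of the 6 libraries was left out, with log2 fold changes of −0.92 to −0.72 and adjusted p of 0.0595 to 0.126.

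The zebrafish names give 2 sequences of miR-454, but the values of the entries did not follow the base that separates them. dre-miR-454a, whose values are also those of ccr-miR-454a, was at 57.7, 77.5 and 63.8 CPM in large fish and at 106, 107 and 121 CPM in small fish. The groups did not overlap, the log2 fold change was −0.74 (SE 0.21), and the adjusted p of 0.0524 by limma missed the threshold. dre-miR-454b, shared with ccr-miR-454b, was at 42.1, 51.8 and 49.7 CPM in large fish and at 96.0, 91.8 and 108 CPM in small fish. It was called lower, with means of 47.9 ± 5.11 and 98.5 ± 8.28 CPM, a log2 fold change of −1.03 (SE 0.20) and an adjusted p of 0.0202 by limma, and the call was kept in 11 of 19 other settings. It was lost without L1, L2, S1 or S3, with adjusted p of 0.0559 to 0.0932 and log2 fold changes of −1.09 to −0.94. The log2 ratio of dre-miR-454b to dre-miR-454a within a library, chosen after the values were seen, was −0.44, −0.57 and −0.35 in L1 to L3 against −0.14, −0.22 and −0.16 in S1 to S3. It was lower in each large fish pool, by 0.29 on average (exact permutation test, 2-sided p = 0.1, the smallest that 3 against 3 allows). dre-miR-454a differs from hsa-miR-454-3p, which has the values of ggo-miR-454, by T16A, and ggo-miR-454 stood within 63 counts of dre-miR-454a in all 6 libraries. ggo-miR-454 begins with the 22 bases of dre-miR-454b. Its mean over the 6 libraries, 92.7 CPM, nevertheless lay nearer to dre-miR-454a (88.7 CPM) than to dre-miR-454b (73.2 CPM). The ratio of dre-miR-454b to dre-miR-454a thus compares reads credited to 2 names and cannot be read as a ratio of 2 sequences. The 4 5p entries of miR-454 were not tested, since ssa-miR-454-5p averaged 0.126 CPM in large and 0.525 CPM in small fish, and hsa-miR-454-5p was at 0 in every large fish library and averaged 0.0578 CPM in small fish.

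miR-301 showed no such difference in its most abundant entry. gga-miR-301b-3p, the representative, which carries the miR-301a sequence, was at 39.6, 62.1 and 40.7 CPM in large fish and at 52.7, 41.2 and 38.4 CPM in small fish. The highest value was that of L2, and the groups overlapped. The means were 47.5 ± 12.7 and 44.1 ± 7.54 CPM (SD, n = 3 each), with a log2 fold change of 0.09 (SE 0.26) and an adjusted p of 0.856 by limma. The entry was called in 0 of 19 other settings, and its sign turned without L2 (−0.12) and without S3 (−0.0041). The values of dre-miR-301a gave the same log2 fold change of 0.09.

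Among the rarer 3p entries of miR-301, 2 were called lower in large fish. They made up 8.7% of the tested miR-301 entries, below the 14.2% of all tested entries called lower. The share without overlap was also 8.7%, beside 29.6% of all tested entries, so these calls do not set miR-301 apart. dre-miR-301c-3p, with A20T, was at 6.45, 9.40 and 11.4 CPM in large fish and at 18.3, 12.4 and 9.94 CPM in small fish. The groups overlapped, and the log2 fold change of −0.52 (SE 0.32) had an adjusted p of 0.302 by limma. dre-miR-301b-3p, with A20T and A21T, was at 0.948, 1.44 and 2.46 CPM in large fish and at 8.38, 4.60 and 3.76 CPM in small fish, on 5, 11, 16, 56, 53 and 28 counts. Every large fish pool lay below every small fish pool. It was called lower, with a log2 fold change of −1.31 (SE 0.36) and an adjusted p of 0.0479 by limma, and the call was kept in 3 of 18 other settings that gave a value. It was lost without any 1 library other than L3, with adjusted p of 0.0932 to 0.137. ssa-miR-301c-3p, the other miR-301 entry called lower, had the same counts except in S1, with 52 against 56. Its log2 fold change was −1.28 with an adjusted p of 0.0473 by limma, and 4 of 18 other settings that gave a value kept its call. Relative to dre-miR-301a in the same library, a ratio chosen after the values were seen, dre-miR-301b-3p was at −4.38, −4.70 and −3.59 in large fish and at −2.50, −2.91 and −3.05 in small fish on the log2 scale. This ratio was 1.40 lower in large fish, with no overlap (exact permutation test, 2-sided p = 0.1, the smallest possible), while that of dre-miR-301c-3p differed by −0.61 and overlapped (exact permutation test, 2-sided p = 0.2).

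Another group of 6 entries, among them aca-miR-301b-3p and ssc-miR-301, was at 6.07, 9.14 and 10.3 CPM in large fish and at 11.5, 9.20 and 7.66 CPM in small fish. Its log2 fold change was −0.15 (SE 0.28) with an adjusted p of 0.751 by limma, and the sign turned under TMM scaling (0.075) and other settings. Of the other 3p sets, ola-miR-301a-3p was at 11.0 ± 2.81 CPM in large and 11.0 ± 2.25 CPM in small fish, abu-miR-301a at 8.50 ± 2.18 and 9.50 ± 1.88 CPM and gmo-miR-301c-3p at 0.888 ± 0.304 and 1.55 ± 0.385 CPM. All 3 overlapped between groups, with adjusted p of 0.983, 0.739 and 0.310 by limma. ssa-miR-301b-3p was not tested and averaged 0.801 CPM in large and 0.700 CPM in small fish. On the 5p side, aca-miR-301a-5p was at 1.71, 2.61 and 1.38 CPM in large fish and at 3.14, 1.04 and 1.75 CPM in small fish. The groups overlapped, with means of 1.90 ± 0.637 and 1.98 ± 1.07 CPM and an adjusted p of 0.998 by limma. The other miR-301 5p value sets were not tested, and dre-miR-301c-5p, dre-miR-301b-5p and gga-miR-301a-5p were at 0 in all large fish libraries while averaging 0.650, 0.500 and 0.621 CPM in small fish, so that no fold is given. All 13 5p entries of miR-301 held TTGCACT, the reverse complement of the seed AGTGCAA, as did 4 of 18 of miR-130 and 0 of 4 of miR-454. aca-miR-301a-5p and gga-miR-130b-5p, printed with bases 2 to 8 in capitals, show this stretch near the 3′ end.
aca-miR-301a-5p: gCTCTGACttcattgcactact
gga-miR-130b-5p: cCTCTTTCcctgttgcactact

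**Figure D2:**
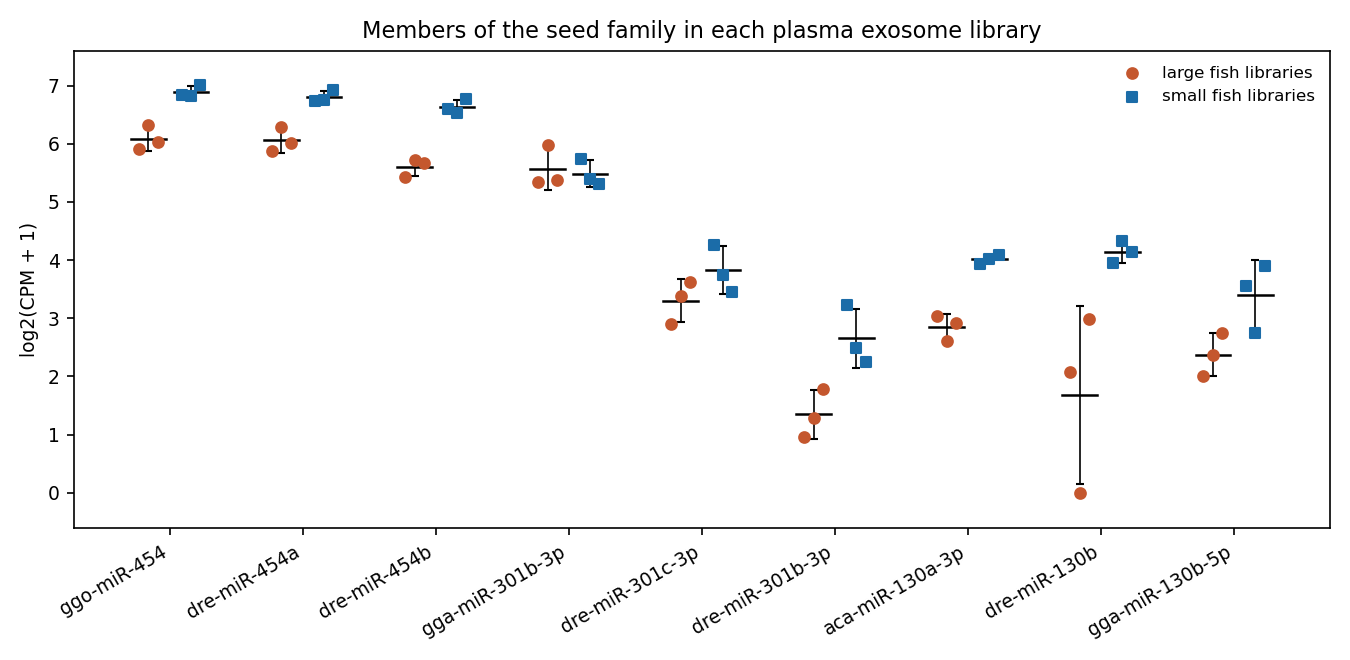
Level of the main value sets as log2(CPM + 1) on the vertical axis, with 1 point per library, circles for large fish and squares for small fish, and lines at the group mean with bars of 1 SD over 3 libraries. The miR-454 sets run from 42.1 to 128 CPM without overlap between groups, gga-miR-301b-3p overlaps between 38.4 and 62.1 CPM, and dre-miR-130b drops to 0 in L2.

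miR-130 was the least abundant family number and had the lowest median fold change. Its representative, aca-miR-130a-3p, whose values 7 entries share, was at 7.21, 5.09 and 6.60 CPM in large fish and at 14.4, 15.2 and 16.0 CPM in small fish, on 38, 39, 43, 96, 175 and 119 counts. The small fish pools lay close together, and every large fish pool lay below them. The means were 6.30 ± 1.09 and 15.2 ± 0.815 CPM (SD, n = 3 each), with a log2 fold change of −1.16 (SE 0.23) and an adjusted p of 0.0202 by limma. The call was kept in 12 of 19 other settings, with log2 fold changes of −1.27 to −0.63. Of the 6 libraries, only leaving out L3 kept the call, and without any other library the adjusted p rose to at most 0.0932, with log2 fold changes of −1.25 to −1.03 over all 6. The value set of sha-miR-130b and cpi-miR-130d-3p, whose sequences begin 1 base further in, differed from it by 1 count in 1 library and was also called lower, at −1.17 with an adjusted p of 0.0202 by limma.

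dre-miR-130b had the largest fold change among the tested value sets, and its large fish values were uneven. Its 6 entries were at 3.22, 0 and 6.91 CPM in L1 to L3 and at 14.5, 19.2 and 16.5 CPM in S1 to S3, on 17, 0, 45, 97, 221 and 123 counts. The count of 0 in L2 allows a level of up to 0.392 CPM, and its exact Clopper-Pearson 95% interval reaches 0.482 CPM. The groups did not overlap, with means of 3.38 ± 3.46 and 16.7 ± 2.34 CPM, and the log2 fold change of −2.45 (SE 0.70) missed the threshold with an adjusted p of 0.0524 by limma. It was called in 4 of 19 other settings, and of the libraries left out in turn only L3 brought it past the threshold (−3.10, adjusted p of 0.0206 by limma), while without L2 it was −1.61 with an adjusted p of 0.0559. The log2 ratio of dre-miR-130b to aca-miR-130a-3p, chosen after the values were seen, was −0.96, −2.61 and 0.06 in L1 to L3. In S1 to S3 it was 0.01, 0.32 and 0.04, so that the groups overlapped (exact permutation test, 2-sided p = 0.3). ssa-miR-130a-3p, which differs from dre-miR-130b by T9C, was likewise at 0 in L2, with 1.71 and 2.15 CPM in L1 and L3 and 5.24, 5.47 and 7.66 CPM in small fish. It was called lower, at −1.79 (SE 0.46) with an adjusted p of 0.0400 by limma, and 4 of 18 other settings that gave a value kept the call. Of the libraries left out in turn, only L3 left it called, and the log2 fold change was −1.27 without L2.

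L2 was thus the lowest large fish library for aca-miR-130a-3p and dre-miR-130b and the highest for gga-miR-301b-3p and ggo-miR-454. Of the 3 muscle miRNAs, miR-1 and miR-206 were also lowest in L2, at 267 and 2031 CPM against 468 and 2312 CPM in L1 and 1203 and 5260 CPM in L3, whereas miR-133 was lowest in L1, at 61.5 CPM against 75.8 CPM in L2 and 146 CPM in L3. Low values in L2 were not particular to muscle markers. Among the large fish libraries L2 was also lowest for miR-126, miR-144, miR-150, miR-221 and miR-122, the last at 87.3 CPM against 257 CPM in L1 and 137 CPM in L3. It was highest for miR-142 and miR-223 and lay between L1 and L3 for miR-222 and miR-451. The part of vesicles from muscle or from any other source in the miR-130 values was not tested.

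The remaining 3p sets of miR-130 varied in size of change. gmo-miR-130b-3p was at 1.33, 0.392 and 1.53 CPM in large fish and at 4.34, 4.86 and 4.70 CPM in small fish, and was called lower at −1.48 (SE 0.30) with an adjusted p of 0.0218 by limma, which 10 of 18 other settings kept and which was lost without any 1 library other than L3 (adjusted p of at most 0.0932). mmu-miR-130a-3p was at 4.17, 2.22 and 4.45 CPM in large fish and at 7.63, 8.42 and 7.53 CPM in small fish. These groups did not overlap either, with a log2 fold change of −0.98 (SE 0.28) and an adjusted p of 0.0560 by limma. mdo-miR-130a-3p was nearly level, at 3.03, 1.96 and 3.07 CPM in large fish and at 3.29, 3.64 and 2.96 CPM in small fish, with an adjusted p of 0.575 by limma. ssa-miR-130d-3p was lower without overlap, at 0.963 ± 0.724 against 2.69 ± 0.392 CPM, but was not called (adjusted p of 0.0882 by limma), and cpi-miR-130a-3p overlapped at 1.63 ± 0.777 and 2.16 ± 0.243 CPM (adjusted p of 0.538 by limma). Below 1 CPM on average in both groups lay pma-miR-130a-3p and pma-miR-130b, which were not tested.

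The 5p strands of miR-130 gave 2 tested value sets and no call. gga-miR-130b-5p was at 3.03, 4.18 and 5.68 CPM in large fish and at 10.8, 5.73 and 14.0 CPM in small fish. The highest large fish value, 5.68 CPM, stood just under the lowest small fish value, 5.73 CPM, and the log2 fold change of −1.03 (SE 0.37) had an adjusted p of 0.0973 by limma. ssa-miR-130b-2-5p was at 1.90, 4.83 and 7.21 CPM in large fish and at 4.64, 2.17 and 2.96 CPM in small fish, which overlapped, with an adjusted p of 0.647 by limma. In all, 23 entries of the family, 22 of them 5p strands, were at 0 in each of the 3 large fish libraries, and 0 entries were at 0 in each of the 3 small fish libraries. Over the whole table, too, fewer entries were above 0 in large fish, with 2151, 1984 and 2105 in L1 to L3 against 2239, 2432 and 2416 in S1 to S3. The share of all entries at 0 throughout a group was not counted, so the family's 23 cannot be read as particular to it. The levels of those 5p strands in small fish averaged under 1 CPM, near the limit that a count of 0 allows, and the filter kept them out of the main test. With no filter on low values, limma called 24 of the 92 entries of the family lower and 0 higher, beside 189 lower and 24 higher of all 2925. Calls on entries at 0 in every large fish library rest on few counts, and no fold is given for them.

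To ask whether the 3 family numbers changed unequally, the log2 ratio of 2 representatives was taken within each library, which does not depend on how libraries are scaled apart from the pseudocount of 1 CPM. The miR-454 to miR-301 ratio was 0.57, 0.34 and 0.64 in large fish against 1.09, 1.42 and 1.72 in small fish. The groups did not overlap, and the difference was −0.89 (exact permutation test, 2-sided p = 0.1, the smallest that 3 against 3 allows). The miR-130 to miR-301 ratio was −2.31, −3.37 and −2.46 in large fish against −1.80, −1.38 and −1.21 in small fish, again without overlap, and differed by −1.24 (exact permutation test, 2-sided p = 0.1). The miR-130 to miR-454 ratio was −2.88, −3.71 and −3.10 in large fish against −2.89, −2.81 and −2.93 in small fish. These overlapped, with a difference of −0.36 (exact permutation test, 2-sided p = 0.3) that turned to 0.10 with a pseudocount of 10. With a smallest p of 0.1, no difference could reach 0.05, either in the 4 planned ratios or in the further ratios chosen after the values were seen.

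**Figure D3:**
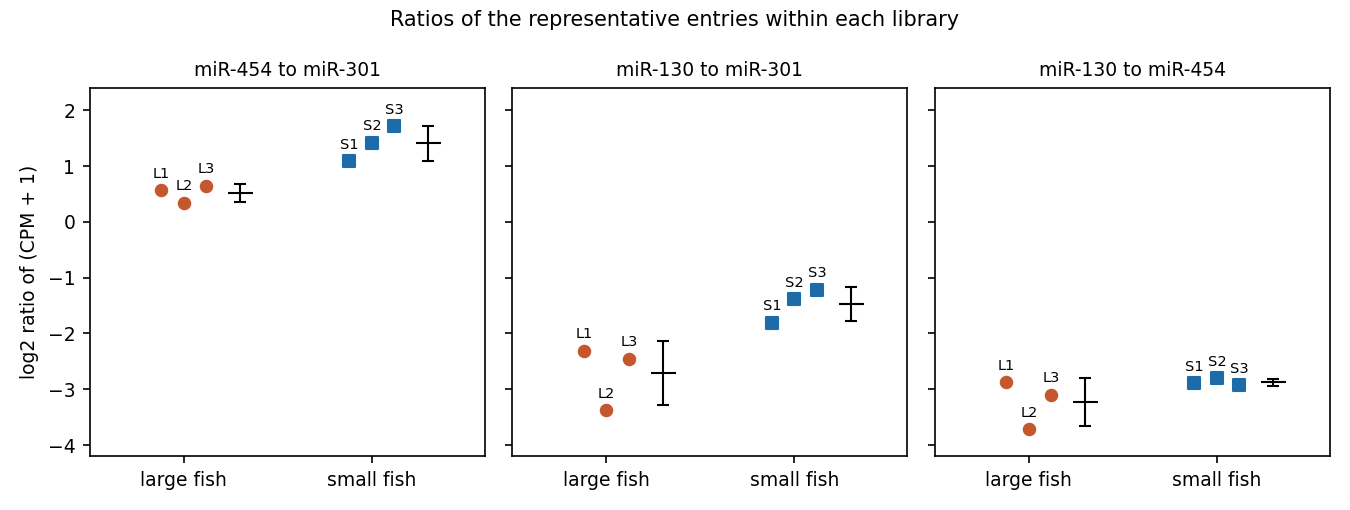
Log2 ratio of the representatives of 2 family numbers within each of the 6 libraries, large fish (L1 to L3) beside small fish (S1 to S3), with a line at the group mean and bars of 1 SD. The ratios to miR-301 are lower in all 3 large fish pools, and the miR-130 to miR-454 ratio overlaps, with L2 lowest at −3.71.

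Between the arms of miR-130b, the log2 ratio of gga-miR-130b-5p to sha-miR-130b was −0.99, −0.23 and −0.19 in large fish against −0.38, −1.27 and −0.18 in small fish, and the means of −0.47 ± 0.45 and −0.61 ± 0.58 did not differ beyond their spread (exact permutation test, 2-sided p = 0.7). The entry sha-miR-130b was the most abundant 3p entry under the name miR-130b but has the miR-130a sequence. With dre-miR-130b in its place, a choice made after the values were seen, the difference was 1.42 (exact permutation test, 2-sided p = 0.2), and the single high value was that of L2, 2.37.

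All changes were also set against the median change of all tested entries, which was −0.26 with the deposited scaling, −0.05 with TMM scaling and 0.09 with quantile normalization. Relative to that median, the log2 fold change of aca-miR-130a-3p was −0.90, −0.88 and −0.85 under these 3 scalings, that of ggo-miR-454 −0.54, −0.50 and −0.36, and that of gga-miR-301b-3p 0.35, 0.38 and 0.29. The order of the 3 was the same under each. Under TMM scaling 14 entries of the family were called lower and 0 higher, beside 165 lower and 95 higher of all 1807. Under quantile normalization limma called 0 entries of the family, with 23 at an unadjusted p under 0.05, beside 95 lower and 138 higher of all 1807.

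Other miRNAs with the same seed, or one that overlaps AGTGCAA by several bases, were looked up by family number. Of these, miR-19, miR-148 and miR-152 were read from their most abundant entry, and miR-721, miR-3666 and miR-4295 had 0 entries. Human miR-19 belongs to a cluster known for promoting cell growth, and miR-148 and miR-152 share a seed and are known in mammals for repressing DNA methyltransferase genes. Their sequences show how the shared bases shift along the seed.
dre-miR-19c-3p: tGTGCAAAtccatgcaaaactcg
dre-miR-148: tCAGTGCAttacagaactttgt
ola-miR-152: tCAGTGCAtaacagaactttgtc
dre-miR-148 was at 248, 245 and 423 CPM in large fish and at 626, 598 and 640 CPM in small fish, and was called lower at −1.07 (SE 0.26) with an adjusted p of 0.0340 by limma, as was ola-miR-152 at −1.06. dre-miR-19c-3p was at 732, 1076 and 545 CPM in large fish and at 1061, 1884 and 1345 CPM in small fish, and its log2 fold change of −0.88 (SE 0.32) had an adjusted p of 0.105 by limma. The values of ola-miR-152 stood close to those of dre-miR-148, at 232, 240 and 402 CPM in large fish and 601, 573 and 597 CPM in small fish. Whether these 2 names count the same reads was not tested, so their calls cannot be taken as separate. Of the 3 entries read, 2 were lower in large fish against 0 higher, beside 14.2% and 2.82% of all tested entries.

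The family numbers whose profile over the 6 libraries was most like each representative were found among 102 candidates of at least 10 CPM, by the root mean square difference of centred log2(CPM + 1) values, as a description over 6 libraries that share 2 groups. For aca-miR-130a-3p these were miR-365 (ggo-miR-365a, 0.177), miR-10 (dre-miR-10a-5p, 0.178) and miR-143 (efu-miR-143, 0.290), all called lower in large fish. For gga-miR-301b-3p they were miR-30 (0.178), miR-17 (0.184) and miR-25 (0.189), and for ggo-miR-454 miR-29 (0.214), miR-18 (0.225) and miR-365 (0.247), of which miR-365 was called lower. ggo-miR-365a, which stood near both miR-130 and miR-454, was at 17.4, 16.7 and 22.3 CPM in large fish and at 32.8, 39.7 and 44.9 CPM in small fish.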

How the data were processed

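Small RNA from plasma exosomes was sequenced in 3 libraries of large and 3 of small grass carp, with molecular identifiers in the library kit. Groups follow the sample titles, and each library is a pool of fish. The authors matched reads to known miRNAs with Bowtie among other tools, with identifiers collapsed per the study's methods, and deposited CPM values of each known miRNA name, scaled to 1000000 miRNA counts. All values (100%) were whole counts once the step of a library was divided out, within a tolerance of 0.02. Known entries summed to between 996790 and 997976 CPM.

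Entries that reached 1 CPM in 3 or more libraries were tested in R 4.3.3 with limma 3.58.1 with a trend on log2(CPM + 1), and alternatives used edgeR 4.0.16 and DESeq2 1.42.0 on the recovered counts. A call needed an adjusted p not above 0.05 together with a 1.5-fold difference. The procedure was tested on simulated data, in which each entry was drawn independently with a common dispersion. Real entries share reads under several names, so that this check does not bear on calls close to the threshold. The representative of a family number was its 3p entry of highest mean CPM, and other value sets were named by their entry of highest mean with zebrafish and common carp names first. Likeness and ratios used the same log2(CPM + 1) values. The members, lists and naming rule were chosen with earlier results of these data known. The pseudocount was also set to 0.1 and 10, the filter dropped or raised to 10 CPM, the scaling changed to TMM or quantile normalization, and limma run without its trend or with a replicate block. Each library was left out in turn, identical entries were counted once, and the bias-corrected quasi-likelihood test and another miR-130b entry were chosen after seeing the data. Genome positions and target sites were not analysed here.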

Additional observations from a re-analysis of the deposited data

How the results depend on the processing

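The count of called entries was 308 of 1807 in all and 21 in the family. It became 46 and 0 with edgeR's quasi-likelihood test (21 family entries at an unadjusted p under 0.05) and 173 and 10 with identical entries counted once, and the family count became 10 with the bias-corrected quasi-likelihood test, chosen after seeing the data, and 0 under quantile normalization (23 at an unadjusted p under 0.05). No total over all entries is given here for the bias-corrected test, so its 10 cannot be set against a share. Leaving out 1 library gave 1 to 365 entries in all and 0 to 24 in the family. aca-miR-130a-3p lost its call under quantile normalization (−0.76) and edgeR's quasi-likelihood test (−1.02), and leaving out 1 library gave −1.25 to −1.03. ggo-miR-454 lost it under limma without trend (−0.80), TMM scaling (−0.55), quantile normalization (−0.27), edgeR's quasi-likelihood (−0.55), bias-corrected (−0.55) and exact (−0.55) tests, DESeq2 (−0.51) and a block, and leaving out 1 library gave −0.92 to −0.72. gga-miR-301b-3p ranged from −0.12 to 0.22 when 1 library was left out. The cause of these changes was not tested.

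With 1 library left out, the difference in the miR-454 to miR-301 ratio was −1.05 to −0.74, in miR-130 to miR-301 −1.45 to −0.91, in miR-130 to miR-454 −0.53 to −0.11 and in the miR-130b 5p to 3p ratio −0.19 to 0.40. A pseudocount of 10 turned miR-130 to miR-454 to 0.10, and dre-miR-130b as the 3p entry gave 1.42. Signs turned for aca-miR-301a-5p with a pseudocount of 10 (−0.0069) and over single libraries (−0.24 to 0.27), and for aca-miR-301b-3p under TMM (0.075), quantile normalization (0.33), edgeR's quasi-likelihood (0.10), exact (0.11) and bias-corrected (0.12) tests, DESeq2 (0.15) and over single libraries (−0.29 to 0.048). They also turned for mdo-miR-130a-3p under quantile normalization (0.13) and over single libraries for dre-miR-301a (−0.11 to 0.22) and ssa-miR-130b-2-5p (−0.0090 to 0.74).

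The replicate numbers in the titles gave no sign of a pairing. Deviations from the group mean correlated at −0.05, −0.06 and 0.02 between same-numbered libraries, within the −0.11 to 0.15 of the other pairs. With 3 libraries a group, such correlations cannot exclude a pairing. With the number as a block, 207 entries in all and 17 in the family were called, aca-miR-130a-3p kept its call at an adjusted p of 0.0474 by limma, and ggo-miR-454 lost it (−0.80, adjusted p of 0.0945). Low counts and the spread between 3 pools a group both limit the miR-130 entries, and dre-miR-130b rested on 17, 0 and 45 counts in L1, L2 and L3. L2, where the count was 0, was the deepest of these libraries, with 7660938 counts against 5272418 in L1 and 6516736 in L3. The cause of the count of 0 was not tested.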
